A study of Mus musculus with 31 samples.

Results

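The urea cycle and periportal amino acid genes described here were 10 genes chosen by name, Cps1, Otc, Ass1, Asl, Arg1, Nags, Gls2, Hal, Sds and Pck1, and all 10 were among the 31172 gene symbols measured in each mouse liver. Of the 10, Pck1 encodes the cytosolic phosphoenolpyruvate carboxykinase of gluconeogenesis. With both dose levels joined, it was lower in livers of mice given the Upf3b-GalNAc-ASO than in livers of mice given the Control-GalNAc-ASO. In the main fits Pck1 did not pass at either dose level alone, nor against the vehicle. None of the 6 genes of the urea cycle itself passed the test in any of the comparisons made here with all mice in, and each is given with the confidence interval of its difference. With a single mouse left out, Arg1 passed at 20 mg/kg against both the Control-GalNAc-ASO and the vehicle, and Asl against the vehicle alone. The mouse left out for Arg1 was set apart partly by its high Arg1. The values are TPM, an abundance unit that scales every library to the same total, and a difference is a log2 fold change of TPM + 1 unless said otherwise.

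The urea cycle turns toxic ammonia and the nitrogen of aspartate into urea. Its first steps take place in mitochondria and the later ones in the cytosol, and hepatocytes around the portal vein carry most of it, together with the breakdown of several amino acids and gluconeogenesis. Hepatocytes next to the central vein take up the ammonia that escapes and fix it into glutamine. The genes of this set are known in liver to follow protein intake, fasting, glucagon and glucocorticoids.

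RNA came from the livers of 31 mice of the strain hFIX-R29X, each sequenced separately. These mice lack the mouse gene for coagulation factor IX and carry a human factor IX minigene with the nonsense mutation R29X, driven by the human transthyretin promoter, so every group, controls included, had the same genotype. They were 8 to 14 weeks old, received 6 subcutaneous doses, and were killed 48 h after the last one. The vehicle group, DPBS, had 11 mice (6 female and 5 male). Control-GalNAc-ASO was given at 15 mg/kg to 4 mice (2 of each sex) and at 20 mg/kg to 6 (3 of each sex). Upf3b-GalNAc-ASO was given at 10 mg/kg to 5 mice and at 20 mg/kg to another 5, each time to 2 females and 3 males. Groups and numbers are those of the labels; the study's own description of its sequenced livers gives fewer mice in a group and does not name the groups at 20 mg/kg. The protocol in the labels puts doses every 5 days, whereas the dose entry of the same labels calls them weekly. An ASO is an antisense oligonucleotide, GalNAc is a sugar that hepatocytes take up through a surface receptor, and UPF3B is a protein of nonsense-mediated mRNA decay. The lower dose differed between the ASOs, so that comparison set 10 mg/kg against 15 mg/kg. The feeding state and the hour of death are not given in the sources used here.

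The depth inferred from the values was 1012526 to 7334110 reads per mouse, and 4 mice had under 1500000. The study's methods state an average sequencing depth above all of these, and the difference was not examined. The 6 hepatocyte markers found in the files (Alb, Ttr, Apoa1, Fgb, Serpinc1 and Ambp) were above 0 in every mouse. In bulk liver, fewer cells of a type and less RNA per cell cannot be told apart. The mouse labelled Upf3b-GalNAc-ASO 20 mg/kg replicate 2 stood apart from the other 4 of its group: Igfbp1, an insulin-repressed secreted binding protein, was 2962 TPM there and 20.5 to 64.6 TPM in the other 4, and 3 members (Arg1, Nags and Sds) were highest of all 31 mice in it, as were 378 genes (4.45%) of the 8503 that reached 5 TPM in the median mouse, while 920 were lowest there. Some other mice held more highest or lowest genes, up to 1456 and 1450 in Upf3b-GalNAc-ASO 10 mg/kg replicate 3. Igfbp1 was singled out after its values were seen. Arg1 was part of what set this mouse apart, so leaving the mouse out lowers Arg1 in its group. Values without the mouse are given for Arg1, Asl, Nags, Sds and Pck1.

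Positions are those of GENCODE M21 on GRCm38, the build the authors used for their transcripts. The urea cycle genes are Cps1 (chr1:67123026-67231259), Otc (chrX:10252305-10321024), Ass1 (chr2:31470207-31520672), Asl (chr5:130011258-130029247), Arg1 (chr10:24915221-24927484) and Nags (chr11:102145513-102149477). The others are Gls2 (chr10:128194457-128210004), Hal (chr10:93488768-93519304), Sds (chr5:120476526-120483932) and Pck1 (chr2:173153048-173159273). Asl and Arg1 lie on the minus strand and the other 8 on the plus strand.

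The oligonucleotide is shown because it is what separates the groups. The study lists this sequence for the parent Upf3b ASO, a 16-base gapmer, with the 10-base deoxy gap in capitals and the 3-base modified wings in lower case.
Upf3b ASO: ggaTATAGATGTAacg
All 16 bases pair with Upf3b transcripts of GENCODE M21. The longest run that pairs with a transcript of a member was 9 bases in Otc, a run matched or exceeded in 4.03% of the 55341 genes searched, 8 bases in Arg1, and 5 to 7 bases in the other 8 members, 7 in Pck1. Only unbroken runs in spliced transcripts were searched, and introns were not.

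Of the members, 5 (Otc, Ass1, Nags, Hal and Pck1) have an entry in the RefSeq promoter table for GRCm38.p6, which covers 250 bases before to 50 after the start. Both strands were searched for the cAMP response element in the forms TGACGTCA and TTACGTCA, a choice made with the result for Pck1 known, since this element is textbook knowledge for that gene. Pck1 held TTACGTCA 93 bases before the start used in that table, which lies downstream of the GENCODE start given above, in capitals in the stretch chr2:173152969-173152998 of the plus strand.
Pck1 promoter: aggcctgccccTTACGTCAgaggcgagcct
The other 4 held neither form. Either form occurs in 2.28% of all 32851 promoters in the table, and a match describes the letters only.

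Upf3b, the targeted gene, was lower in the Upf3b-GalNAc-ASO groups. It was 5.97, 20.7, 53.7, 3.95 and 23.3 TPM in the 5 mice at 10 mg/kg, and 66.9, 27.1, 58.5 and 78.7 TPM in the 4 mice given 15 mg/kg of control. The replicate at 53.7 TPM, which had 1012526 reads, lay inside the control range. The 5 mice at 20 mg/kg had 9.37, 2.68, 2.57, 16.7 and 7.68 TPM, against 85.3 to 135 TPM (median 113) in the 6 control mice, with no overlap. Upf3b differed by -2.91 over both dose levels (SE 0.41, adjusted p = 7.29e-05, limma) and by -3.87 at 20 mg/kg (adjusted p = 1.59e-05). At the lower dose it differed by -1.73 and did not pass (adjusted p = 0.211). Against DPBS it passed at 10 mg/kg (-2.57, adjusted p = 0.00455, limma) and at 20 mg/kg (-3.68, adjusted p = 3.21e-06). The control at 15 mg/kg was itself at -0.75 against DPBS (unadjusted p = 0.0426, adjusted p = 0.691, limma).

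Across both dose levels, 10 Upf3b-GalNAc-ASO mice were set against 10 Control-GalNAc-ASO mice, with sex and dose level in the fit. Of the 10 members tested, 1 passed an adjusted p under 0.05, against 6.04% of all 9797 genes tested (592 genes, 357 of them lower). The members' median difference was -0.11 and the median over all genes tested was -0.06. Leaving out each mouse in turn moved the members' median from -0.18 (without Upf3b-GalNAc-ASO 20 mg/kg replicate 2) to -0.033 (without Upf3b-GalNAc-ASO 10 mg/kg replicate 3). Among the urea cycle genes, 3 of 6 were above 0 and 3 below, with a median of -0.0038. At the lower dose 0 of 10 members passed, where 0.295% of 9166 genes did, and at 20 mg/kg 0 of 10 passed, where 2.52% of 9376 did. Unadjusted p was under 0.05 for 1 member, Pck1, in each of these 3 comparisons, against 21.5%, 15.8% and 18.7% of genes.

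**Figure D1:**
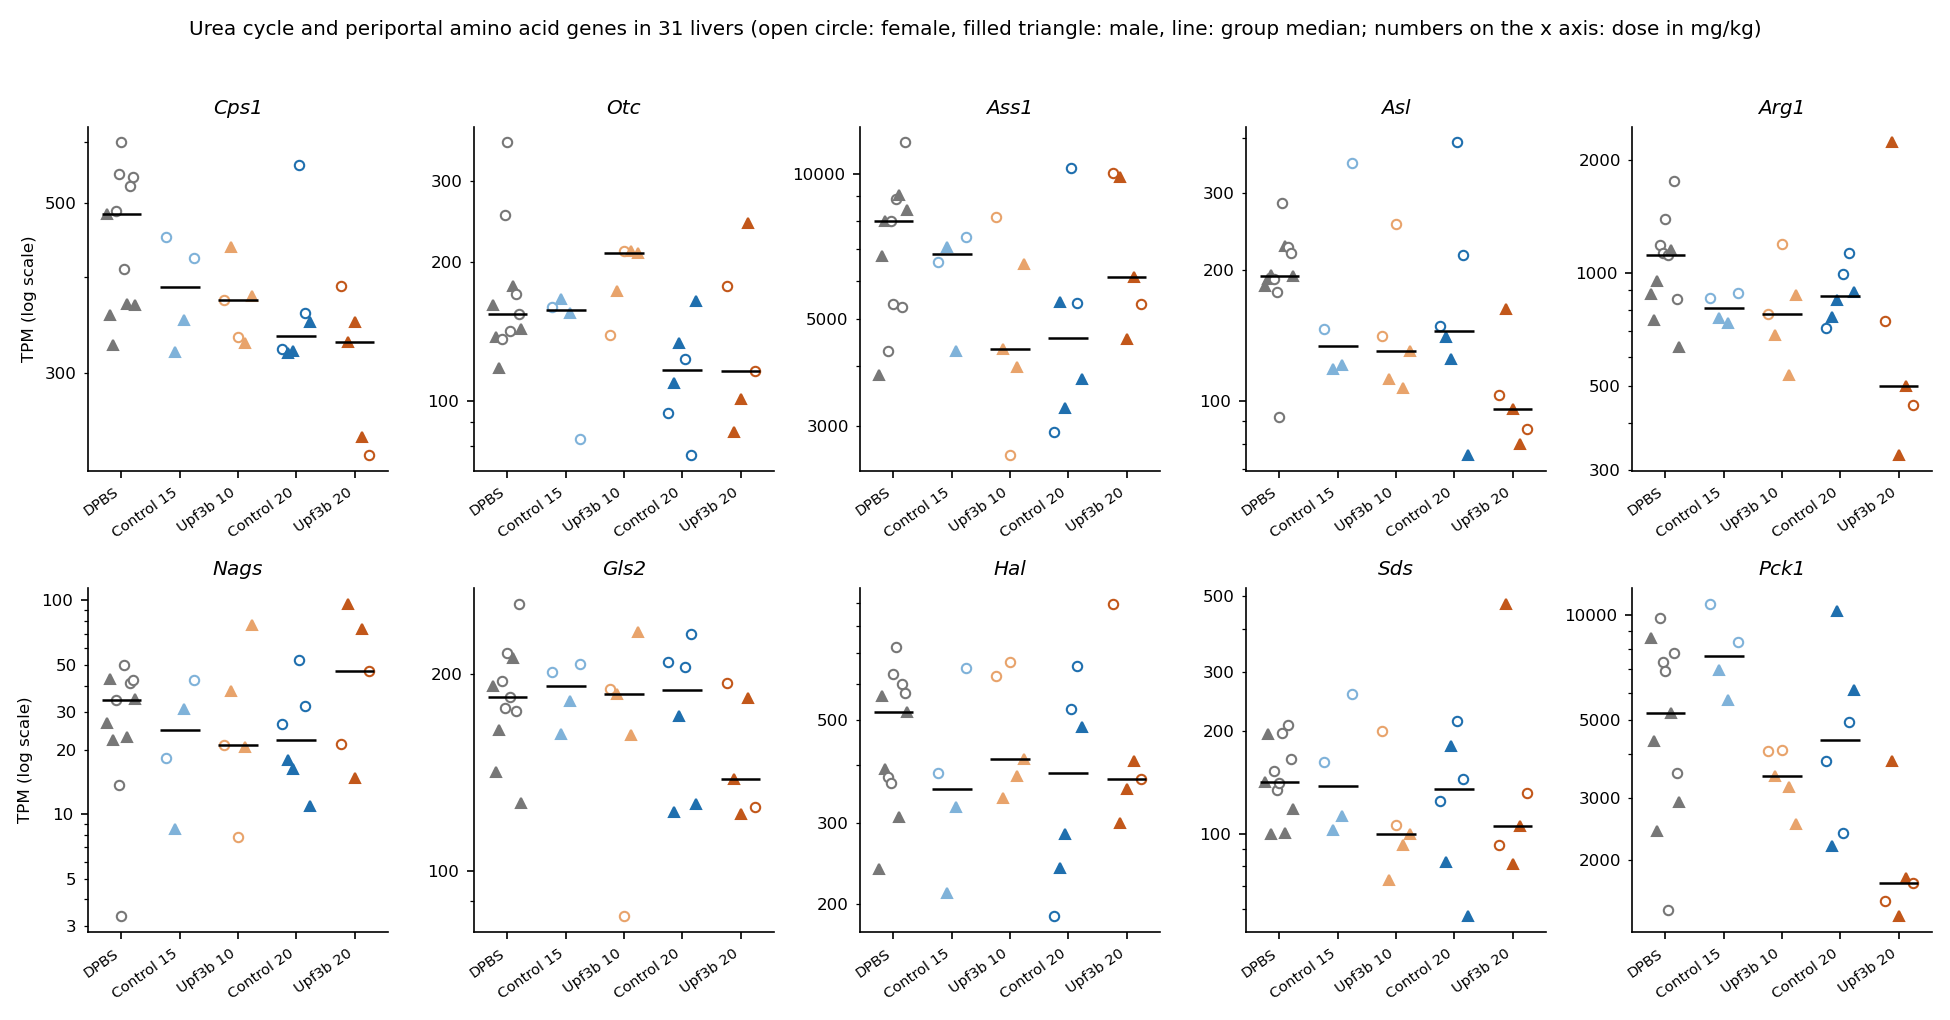
TPM on a log scale for each of the 10 members in each of the 31 mice, by group, with open circles for females, filled triangles for males and a line at the group median. Pck1 in the 5 mice at 10 mg/kg of Upf3b-GalNAc-ASO (2528 to 4104 TPM) lies under all 4 of its control mice (5704 to 10762.5 TPM), while the groups of the other 9 members overlap.

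Nags and Cps1 stand at the entry of the cycle. Nags makes N-acetylglutamate, the activator without which CPS1 does not work. It rested on as few as 4 reads in a mouse, and it was 21.1, 37.6, 7.84, 20.6 and 77.1 TPM at 10 mg/kg of Upf3b-GalNAc-ASO and 18.2, 8.58, 31.1 and 42.4 TPM in its controls. The mice at 20 mg/kg had 21.3, 96.8, 14.7, 73.7 and 46.8 TPM, against 10.9 to 52.9 TPM (median 22.2) in its controls. The groups overlapped at both doses, and 2 mice at 20 mg/kg lay above all their controls. Nags differed by 0.54 over both dose levels (95% confidence interval -0.28 to 1.35, adjusted p = 0.452, limma), the widest interval of the 10, and by 0.36 without replicate 2 of the mice at 20 mg/kg (adjusted p = 0.643). At 20 mg/kg alone it differed by 0.83 (adjusted p = 0.360), and by 0.48 without that mouse (adjusted p = 0.596). In GENCODE M21, Nags shares exon sequence with Gm11586 on the opposite strand, and the strand setting of the quantification is not given in the sources used here.

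Cps1 makes carbamoyl phosphate from ammonia and is the most abundant protein of liver mitochondria. It was 373, 438, 334, 328 and 378 TPM at 10 mg/kg of Upf3b-GalNAc-ASO and 451, 320.2, 352 and 424 TPM in its controls. The mice at 20 mg/kg had 389, 329.7, 349.5, 248 and 235.0 TPM, against 319 to 559.7 TPM (median 336). The groups overlapped at both doses, although 2 mice at 20 mg/kg lay below all their controls. The difference over both dose levels was -0.15 (-0.51 to 0.20, adjusted p = 0.647, limma).

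Otc, on the X chromosome, joins carbamoyl phosphate to ornithine to give citrulline. At 10 mg/kg it was 139, 173, 212, 211 and 209 TPM, and in its controls 160.1, 166, 155 and 82.8 TPM, so 4 of 5 treated mice lay above every control mouse. Otc at 20 mg/kg was 177, 85.8, 101, 243 and 116 TPM, against 76.4 to 164 TPM (median 116), and the groups overlapped. Over both dose levels Otc differed by 0.31 (-0.13 to 0.75, adjusted p = 0.414, limma).

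Ass1 and Asl work in sequence in the cytosol: argininosuccinate synthase brings in the nitrogen of aspartate, and argininosuccinate lyase splits the product into arginine and fumarate. Ass1 was 8155, 4333, 2608, 3971 and 6504 TPM at 10 mg/kg and 6571, 7053, 4297 and 7388 TPM in its controls. Ass1 in the mice at 20 mg/kg was 10042, 9864, 4539, 6111 and 5374 TPM, against 2907 to 10290.5 TPM (median 4571). At 10 mg/kg 2 treated mice lay below all 4 controls, at 20 mg/kg 0 of 5 lay below all 6, and the groups overlapped at both doses. Ass1 differed by 0.15 over both dose levels (-0.36 to 0.65, adjusted p = 0.778, limma). The difference of Ass1 was -0.38 at the lower dose and 0.57 at 20 mg/kg (unadjusted p = 0.286 and 0.0733). The test of the difference between those effects gave 0.93 (-0.02 to 1.87, unadjusted p = 0.0554, adjusted p = 0.625, limma), the largest such value among the members.

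Asl was 141, 112, 254, 107 and 131 TPM at 10 mg/kg and 146, 119, 121 and 351 TPM in its controls. The 20 mg/kg mice had Asl at 103, 162, 96.2, 79.6 and 86.4 TPM, against 75.3 to 391 TPM (median 145). Single control mice were high in both sets, the females at 351 and 391 TPM, and the groups overlapped. Asl differed by -0.39 over both dose levels (-0.88 to 0.10, adjusted p = 0.350, limma).

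Arg1 releases urea from arginine and closes the cycle. It was 779, 683, 1197, 535 and 874 TPM at 10 mg/kg and 860.3, 760.0, 739 and 883 TPM in its controls. Arg1 at 20 mg/kg was 746, 2224, 329, 503 and 446 TPM, against 715 to 1129 TPM (median 869). Of these 5 mice, 3 lay below all their controls and replicate 2, at 2224 TPM, lay above all of them. Arg1 differed by -0.43 at 20 mg/kg (-1.20 to 0.35, adjusted p = 0.568, limma), and without replicate 2 it differed by -0.86 and passed (adjusted p = 0.0467). High Arg1 was part of what set replicate 2 apart, so this pass was tied to the choice of mouse. With each mouse left out in turn, adjusted p ran from 0.0467 to 0.824. Over both dose levels Arg1 differed by -0.24 (-0.74 to 0.27, adjusted p = 0.613, limma), and by -0.45 without replicate 2 (adjusted p = 0.160).

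Gls2, Hal and Sds feed nitrogen or carbon from amino acids into these pathways. Gls2 is the liver glutaminase that frees ammonia from glutamine, and it ran from 85.2 to 232 TPM at 10 mg/kg (median 186) against 162 to 207 TPM (median 192), and from 122 to 194 TPM at 20 mg/kg (median 138) against 123 to 230.3 TPM (median 189). Gls2 differed by -0.19 over both dose levels (-0.61 to 0.22, adjusted p = 0.619, limma). Gls2 shares exon sequence with Spryd4 on the opposite strand.

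Hal is histidine ammonia-lyase, the enzyme that starts histidine breakdown. It was 624.8, 340.0, 668, 379 and 412 TPM at 10 mg/kg and 386, 211, 325 and 649 TPM in its controls, and at 20 mg/kg 896, 299, 354, 409 and 373 TPM against 188 to 655 TPM (median 384). Both pairs of groups overlapped, and the females at 624.8, 668 and 896 TPM were the highest treated mice. Hal differed by 0.37 over both dose levels (-0.09 to 0.83, adjusted p = 0.342, limma).

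Sds, serine dehydratase, turns serine into pyruvate and ammonia. It was 201, 72.8, 106, 92.6 and 99.9 TPM at 10 mg/kg and 163, 103, 113 and 258 TPM in its controls, with 3 of 5 treated mice below every control. Sds at 20 mg/kg was 92.8, 477, 81.4, 105 and 132 TPM, against 57.1 to 214 TPM (median 135), with replicate 2 above all controls. The difference was -0.07 over both dose levels (-0.66 to 0.53, adjusted p = 0.926, limma) and -0.33 without replicate 2 (adjusted p = 0.409). Sds shares exon sequence with Gm15690 and Plbd2 on the opposite strand.

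Pck1 makes phosphoenolpyruvate from oxaloacetate, the step by which carbon of amino acids enters glucose synthesis, and its transcription is raised by glucagon through cAMP and by glucocorticoids and lowered by insulin. Pck1 was 4092, 3462, 4104, 3227 and 2528 TPM in the 5 mice at 10 mg/kg of Upf3b-GalNAc-ASO. It was 10762.5, 6937, 5704 and 8349 TPM in the 4 mice at 15 mg/kg of Control-GalNAc-ASO. All 5 treated mice lay below all 4 controls, as they did for 2.73% of all genes tested in that comparison.

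At 20 mg/kg of Upf3b-GalNAc-ASO Pck1 was 1525, 3835, 1382, 1772 and 1712 TPM. It was 2196 to 10234 TPM (median 4382) in the 6 mice at 20 mg/kg of Control-GalNAc-ASO. Here 4 of 5 treated mice lay below all controls, and replicate 2, at 3835 TPM, lay among them. At the lower dose the treated mice had a mean of 3483 ± 659 TPM (SD, n = 5), which is 56.1% lower than the 7938 ± 2171 TPM (SD, n = 4) of their controls. The higher dose gave 2045 ± 1012 TPM (SD, n = 5), which is 58.6% lower than the 4943 ± 2989 TPM (SD, n = 6) of the controls there.

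Over both dose levels Pck1 differed by -1.18 (SE 0.24, 95% confidence interval -1.66 to -0.69, adjusted p = 0.00317, limma), a level 0.443 times that of the controls, and all 10 treated mice lay below the control median of 5892 TPM. It ranked 94 of 9797 genes by p. Leaving out each mouse in turn kept the call, with differences of -1.30 to -1.02 and adjusted p of 0.000795 to 0.0100. Each dose level alone gave a like value without passing, -1.12 at the lower dose (unadjusted p = 0.000397, adjusted p = 0.0654) and -1.22 at 20 mg/kg (unadjusted p = 0.00248, adjusted p = 0.0702). At the lower dose Pck1 passed when replicate 1 or 3 of the treated mice was left out (adjusted p = 0.0324 and 0.0147), and at 20 mg/kg when control replicate 2 or treated replicate 2 was left out (adjusted p = 0.0140 and 0.0403). The test of the difference between the dose levels gave -0.0031 with a confidence interval of -0.995 to 0.989 (adjusted p = 0.999).

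Hepatocyte markers were compared beside Pck1. All 6 of these differences were below 0 in the same comparison, from -0.79 (Fgb, a fibrinogen chain, adjusted p = 0.00818) to -0.13 (Alb), and 1 of 6 passed. Their summed level was 15081 to 29938 TPM at 10 mg/kg and 16414 to 29597 TPM at 20 mg/kg of Upf3b-GalNAc-ASO, against 23091 to 32192 TPM and 16541 to 28718 TPM in the controls. The ranges overlapped, and their part in the result for Pck1 was not tested. Among markers of other cells, 1 of 6 endothelial markers rose, Pecam1, an adhesion molecule, by 1.06 (adjusted p = 0.00556), and 0 of 5 Kupffer, 0 of 4 stellate, 0 of 2 cholangiocyte, 0 of 2 lymphocyte and 0 of 5 erythroid markers tested passed.

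**Figure D2:**
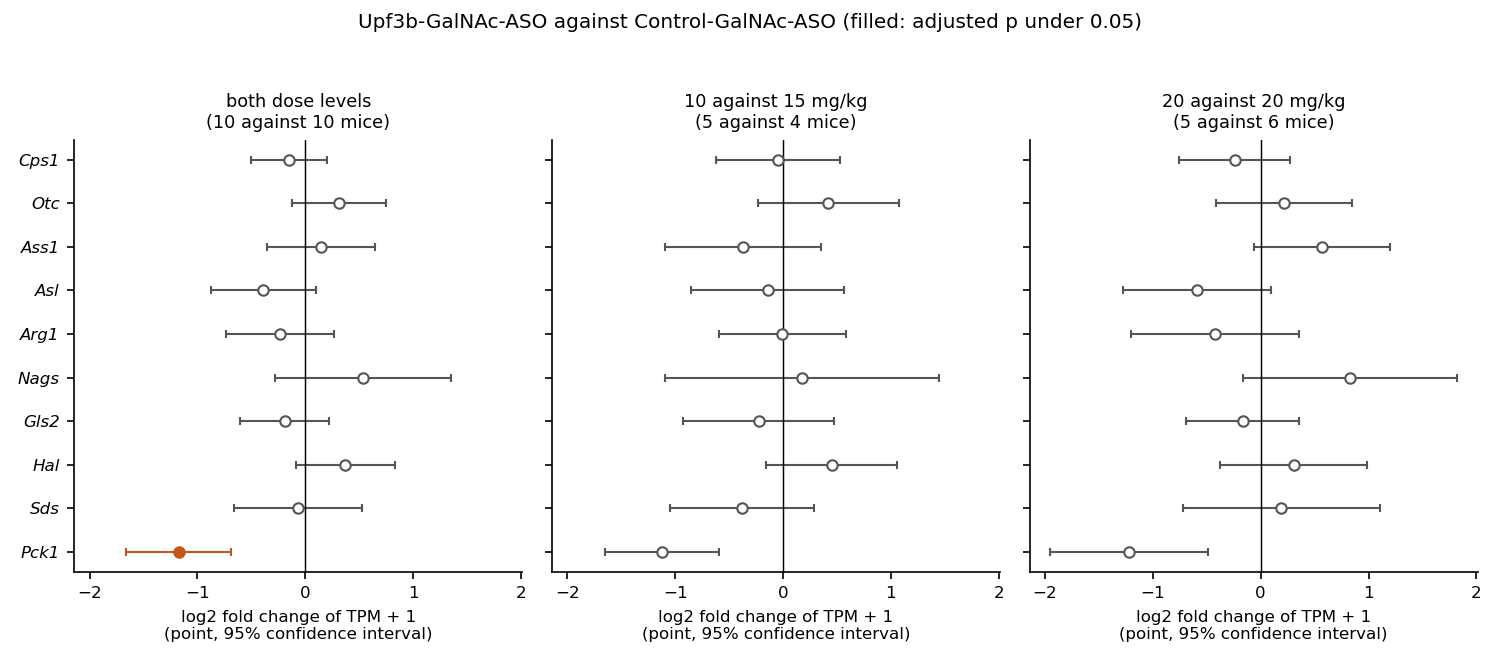
Log2 fold change of TPM + 1 for each member, Upf3b-GalNAc-ASO against Control-GalNAc-ASO, as a point with its 95% confidence interval, for both dose levels together and each alone, filled where the adjusted p was under 0.05. Pck1 is the filled point, at -1.18, and lies at -1.12 and -1.22 in the separate dose levels, while the intervals of the other 9 members include 0.

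The genes around the members were taken from lists chosen with earlier results of these data known. Each count is given beside the 3.64% of all genes called lower and the 2.40% called higher over both dose levels. The counts describe the lists and are not a test of them. Of 13 tested carriers and enzymes that bring nitrogen to the cycle, 2 fell and 0 rose: Got1, the cytosolic aspartate aminotransferase that makes aspartate for Ass1, by 0.94 (adjusted p = 0.0260, limma), and Slc7a2, an arginine and lysine transporter, by 0.76 (adjusted p = 0.0187). The median of these 13 was -0.55. Got1 and Slc7a2 stand at the aspartate and arginine ends of the cycle, whose own enzymes did not pass.

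Of 28 tested genes of other amino acid breakdown, 4 fell and 1 rose, with a median of -0.24. Prodh, proline dehydrogenase, fell by 1.61 (adjusted p = 0.0415, limma), Tat, tyrosine aminotransferase, fell by 1.35 (adjusted p = 0.00357), Gnmt, glycine N-methyltransferase, fell by 0.98 (adjusted p = 0.00360) and Aass, which starts lysine breakdown, fell by 0.94 (adjusted p = 0.0284). Ftcd, which acts downstream of Hal in histidine breakdown, rose by 0.71 (adjusted p = 0.0493) and is named after its value was seen, as the sole gene of the list that rose. Tat is, like Pck1, a textbook target of glucagon and glucocorticoids. Of 12 tested genes of gluconeogenesis and glycolysis other than Pck1, Fbp1, fructose bisphosphatase, fell by 0.70 (adjusted p = 0.0185), and 0 rose.

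Other periportal markers gave 1 call in 8, Aldh1b1, a mitochondrial aldehyde dehydrogenase, which rose by 0.81 (adjusted p = 0.0184, limma), and values on both sides of 0. Pericentral markers were all at or below -0.18, and 4 of 10 fell. Oat, which passes ornithine on to glutamate, fell by 2.44 (adjusted p = 1.25e-07), Slc1a2, a glutamate transporter, by 1.88 (adjusted p = 6.33e-06), Glul, glutamine synthetase, by 1.10 (adjusted p = 0.000576), and Cyp27a1, a bile acid enzyme, by 0.66 (adjusted p = 0.0407). The median was -0.50 for the 10 pericentral markers and 0.09 for the 8 periportal ones, and the difference between the lists was not tested. Of 14 tested regulators, 0 passed; those with the largest values were Irs2, an insulin receptor substrate, at 0.86 (adjusted p = 0.315) and Foxa2, a liver transcription factor, at -0.74 (adjusted p = 0.281).

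In the other comparisons, fewer genes of these lists passed. At the lower dose Oat fell by 2.53 (adjusted p = 0.00473, limma) and Tat fell by 1.99 (adjusted p = 0.0237). At 20 mg/kg against the control ASO, Slc1a2 and Oat both fell by 2.37 (adjusted p = 8.54e-05 and 0.000310, limma). Glul fell by 1.41 (adjusted p = 0.00241) and Slc7a2 by 0.999 (adjusted p = 0.0456) in that comparison. Pecam1 rose by 1.27 there (adjusted p = 0.0201). Oat also fell at 10 mg/kg against DPBS, by 1.65 (adjusted p = 0.0258, limma). The pericentral markers Slc1a2, Oat and Glul fell at 20 mg/kg against DPBS, by 1.94, 1.61 and 1.06 (adjusted p = 0.000504, 0.0132 and 0.0247, limma). Against DPBS at 20 mg/kg, the regulators Nr3c1, the glucocorticoid receptor, and Klf15, a transcription factor of amino acid breakdown, fell (adjusted p = 0.0468 and 0.0454, limma), and the periportal markers Aldh1b1 and Cdh1, E-cadherin, rose (adjusted p = 0.0123 and 0.0134). Klf15 was at -1.12 and Cdh1 at 1.11 there. Within the DPBS mice, 4 of 8 tested periportal markers differed between the sexes, where 1.41% of 8998 genes did. From the other lists, Alb (-0.92, adjusted p = 0.0208, limma), Mat1a of amino acid breakdown (-0.76, adjusted p = 0.0351) and the erythroid marker Alas2 (3.02, adjusted p = 2.38e-05) also differed, male minus female. For the periportal markers the male minus female difference was -2.06 for Hsd17b6 (adjusted p = 0.00966, limma), -1.41 for Ctsc (adjusted p = 0.0155), 1.34 for Cyp2f2 (adjusted p = 0.00222) and -1.33 for Aldh1b1 (adjusted p = 0.00877).

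**Figure D3:**
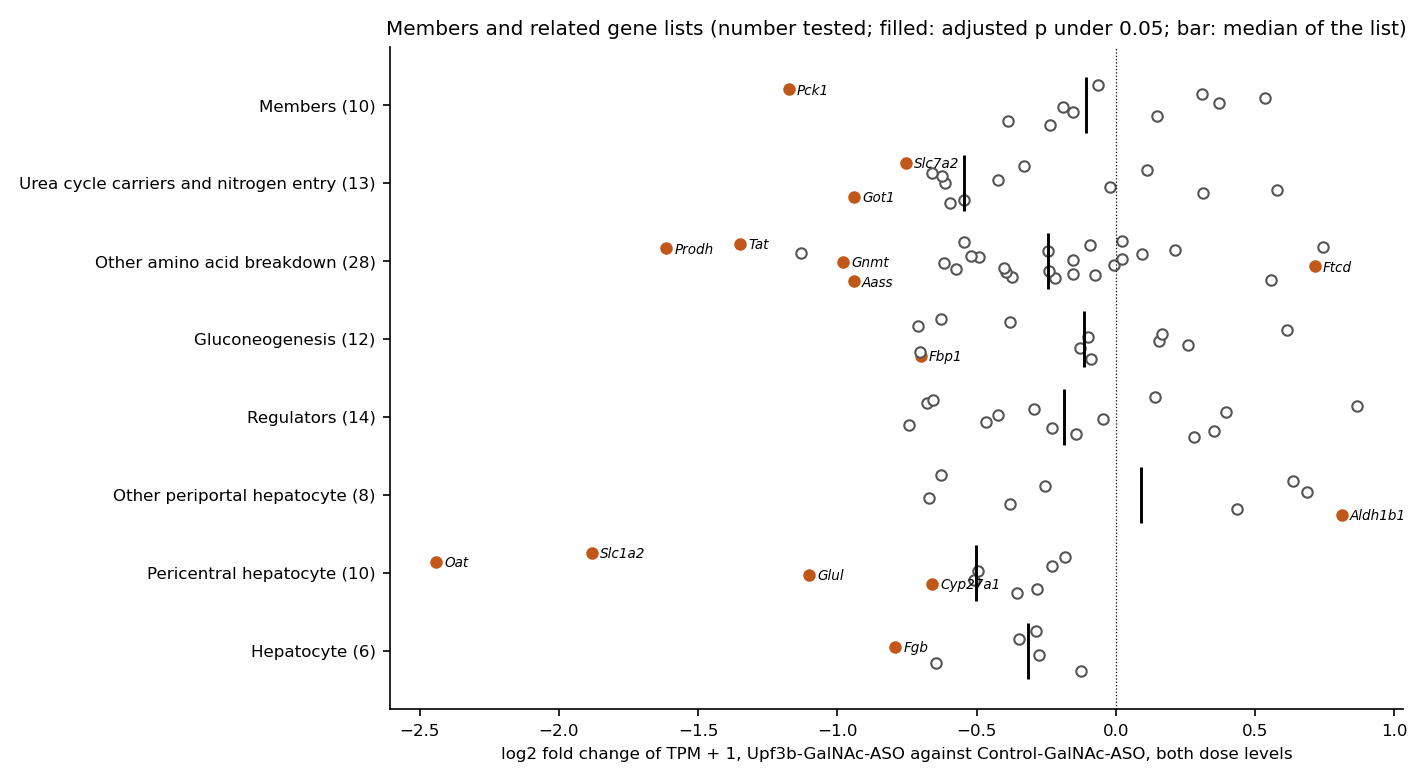
Log2 fold change of TPM + 1 of Upf3b-GalNAc-ASO against Control-GalNAc-ASO over both dose levels for the members and 7 related lists, 1 point per gene tested, filled and named where the adjusted p was under 0.05, with a bar at the median of each list. The members spread on both sides of 0 with Pck1 at -1.18 apart from them, and Oat, at -2.44, and Slc1a2, at -1.88, are the lowest points drawn.

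Against DPBS, the Control-GalNAc-ASO alone called 0 genes by limma at either dose, so 0 members passed where 0% of 8971 and 0% of 9140 genes did, with 644 and 905 genes (7.18% and 9.9%) at an unadjusted p under 0.05. Of the members, 0 and 2 reached that unadjusted threshold. At 15 mg/kg all 6 urea cycle genes lay below 0, from -0.34 (Arg1) to -0.14 (Ass1), and Pck1 was the highest member, at 0.72 (-0.13 to 1.57, adjusted p = 0.719, limma). At 20 mg/kg all 10 members lay below 0, with a median of -0.24 while the median over all genes was 0.15. Otc was at -0.56 and Ass1 at -0.54 there, both with an unadjusted p under 0.05 (0.0218 and 0.0434) and neither past the adjusted threshold (0.469 and 0.494).

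The Upf3b-GalNAc-ASO groups were set against the same 11 DPBS mice, so these comparisons share their controls with each other and with those above. At 10 mg/kg 0 of 10 members passed, where 0.376% of 9032 genes did, and Pck1 was at -0.42 (-1.15 to 0.31, adjusted p = 0.760, limma). At 20 mg/kg 0 of 10 passed, where 1.13% of 9078 did. Pck1 was then at -1.31 (-2.12 to -0.50, adjusted p = 0.128) and Asl at -0.92 (-1.42 to -0.41, adjusted p = 0.0714). Arg1 was at -0.62 (-1.28 to 0.04, adjusted p = 0.454) and Cps1 at -0.51 (-0.92 to -0.10, adjusted p = 0.281). Unadjusted p (limma) was under 0.05 at 20 mg/kg for 3 of 10 members, Cps1, Asl and Pck1, against 11.9% of genes. At 10 mg/kg it was under 0.05 for 0 of 10, against 8.27% of genes. Without replicate 2 of the treated mice, Asl was at -1.07 (adjusted p = 0.0268) and Arg1 at -1.07 (adjusted p = 0.0118), both past the threshold, and Pck1 was at -1.57 (adjusted p = 0.0856). High Arg1 was part of what set that mouse apart. Asl also passed without DPBS replicate 6 (adjusted p = 0.0135), and Pck1 without DPBS replicate 7 (-1.46, adjusted p = 0.0172). Asl was 92.0 to 284 TPM (median 193) in the DPBS mice, and all 5 treated mice, at 79.6 to 162 TPM, lay below 10 of the 11, the exception being the DPBS mouse at 92.0 TPM, which had under 1500000 reads.

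**Figure D4:**
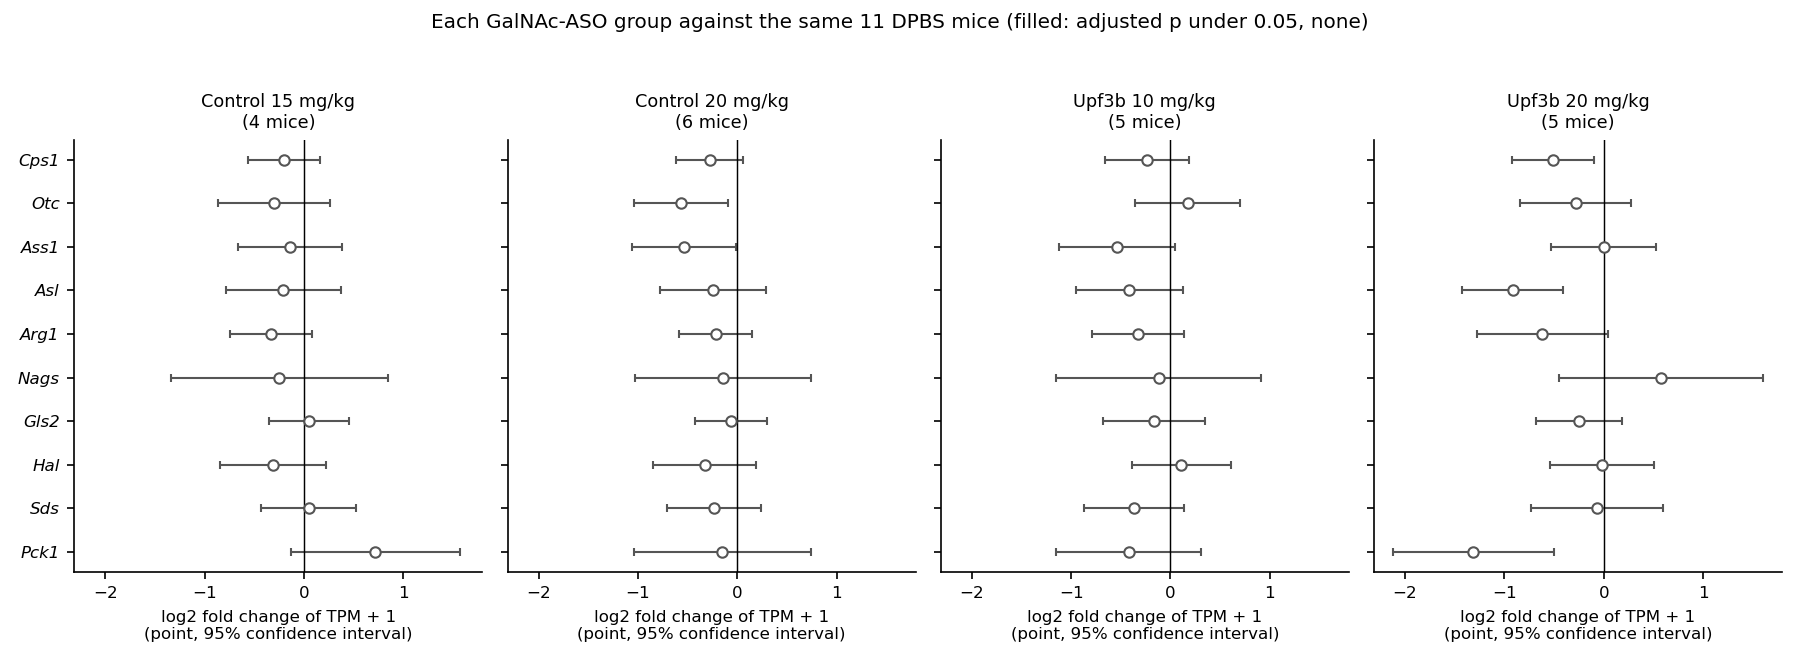
Log2 fold change of TPM + 1 for each member in each of the 4 GalNAc-ASO groups against the same 11 DPBS mice, as a point with its 95% confidence interval. Pck1 lies at 0.72 and -0.15 in the Control-GalNAc-ASO groups and at -0.42 and -1.31 in the Upf3b-GalNAc-ASO groups, and none of the 40 points passed an adjusted p under 0.05.

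The spread of the members without any ASO bears on what these group sizes could show. In the 11 DPBS mice Pck1 ran from 1441 to 9804 TPM (median 5248), and its SD on the log2 scale, 0.87, was larger than that of 90.1% of the 1436 genes whose median reached 100 TPM. Gls2 was among the steadiest, with an SD of 0.28 (larger than 8.77% of those genes), and Cps1 followed at 0.30 (12.9%). The other members of at least 100 TPM lay between 0.37 (Sds) and 0.50 (Ass1). Of the 10 Upf3b-GalNAc-ASO mice, 1 lay outside the DPBS range of Pck1, at 1382 TPM.

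Within the DPBS group 0 of 10 members differed between the sexes at an adjusted p under 0.05, where 1.41% of 8998 genes did. Arg1 was 1241 ± 307 TPM (SD, n = 6) in females and 875 ± 197 TPM (SD, n = 5) in males, and Cps1 was 518 ± 63.7 TPM in females and 380 ± 59.6 TPM in males. All 5 males lay below the female median for both genes, with overlap. The differences, male minus female, were -0.50 for Arg1 and -0.45 for Cps1 (adjusted p = 0.480 and 0.479, limma).

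**Figure D5:**
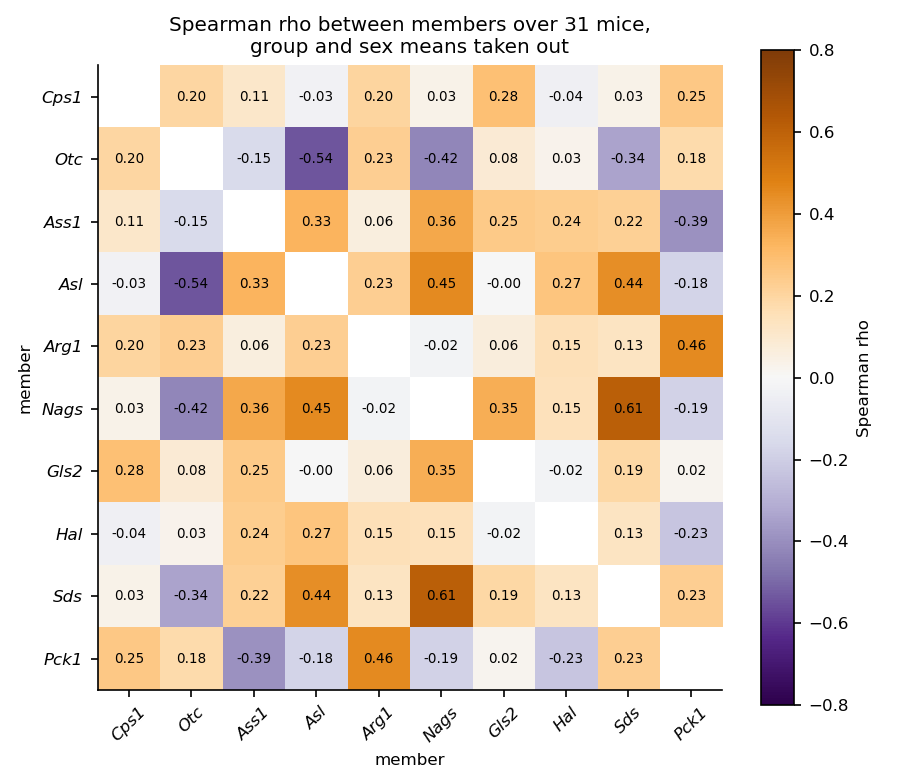
Spearman correlation of each pair of members over the 31 mice after the group and sex means were taken out, with colour and number both giving rho. Sds with Nags, at 0.61, is the highest of the 45 pairs and Otc with Asl, at -0.54, the lowest.

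From mouse to mouse the members did not move as a block. With group and sex means taken out of log2(TPM + 1), the 45 pairs of members had a median Spearman rho of 0.13 over the 31 mice, 32 of them above 0. These values are descriptions over points that share libraries and depth. Within the cycle, Asl ran with Nags (0.45) and Ass1 (0.33) and against Otc (-0.54), and Otc also ran against Nags (-0.42). Pck1 ran with Arg1 (0.46) and against Ass1 (-0.39). In the 27 mice with at least 1500000 reads these values were 0.49, 0.35, -0.62, -0.32, 0.41 and -0.38.

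Among 8503 genes whose median reached 5 TPM, the genes most like each member were mostly outside the set. Those nearest Pck1 were Errfi1 (0.73) and Ell2 (0.69), and those nearest Cps1 were Fbp1 (0.70) and Cox11 (0.66). The nearest of Nags were Ralb (0.77) and Prodh (0.72), and of Sds they were Bcl2l11 (0.64) and Nags (0.61), the sole case of a member among the 2 nearest of another. The nearest of Otc were Nae1 (0.71) and Dera (0.67), of Ass1 Slc43a1 (0.82) and Cdk16 (0.75), and of Asl Safb (0.74) and Trim7 (0.71). The nearest of Arg1 were Gm8624 (0.68) and Bhmt2 (0.64), of Gls2 Gstm6 (0.71) and Tef (0.69), and of Hal Papolg and Ms4a4b, both at 0.74.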

How the data were processed

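RNA sequencing of 31 mouse livers was analysed. Per the labels and the study's methods, the authors quantified reads with Salmon 0.7.2 against Ensembl transcripts of GRCm38, after bcl2fastq 2.17.1.14, and deposited 1 TPM table per mouse. The labels name a 3′ tag kit and the methods another kit. Of 31198 symbols, 26 had turned into dates and were dropped. Within a mouse, 1 read was worth the same TPM for every gene, so the values were not divided by length and no levels are compared between genes. Between 69.9% and 81.6% of values were whole reads within 0.02 read (4% by chance), which gave 1012526 to 7334110 reads per mouse. Since not nearly all values were whole, no count test was run. At this depth 3 reads are 0.406 to 2.94 TPM, which covers counting error only.

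Log2(TPM + 1) was fitted with limma 3.58.1 (R 4.3.3, trend and robust) in the groups compared, with sex as a covariate, and dose level where both levels were joined. Genes whose median reached 5 TPM in a group compared were tested, with two-sided p-values adjusted by Benjamini-Hochberg over all of them, and called at an adjusted p under 0.05. The script was tested on simulated data. Percentiles, correlations and motifs were computed with Python 3.11.15, numpy 2.4.6 and pandas 2.3.3, and figures drawn with matplotlib 3.10.9. The alternatives were pseudocount 5, no filter, no sex term, rescaled values, all 31 mice in 1 fit, a replicate block, each mouse left out and, chosen after seeing the data, no mice under 1500000 reads.

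The members and lists were chosen with earlier results of these data known. The rule for named genes took all members, Upf3b, from each other list the genes called in a comparison (at most the 4 with the largest difference) or otherwise the 2 with the largest pooled difference, and the 2 genes most correlated with each member. Not every gene it allows is printed. Mice are separate animals per the labels.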

Additional observations from a re-analysis of the deposited data

Results flagged for a closer look

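Dixon's test was applied to each of the 10 members in the 4 ASO groups, 40 sets in all, of which chance alone flags about 1 in 20, and 5 sets held a mouse far from the others of its group. Cps1 was 559.7 TPM in Control-GalNAc-ASO 20 mg/kg replicate 4, with the next mouse at 359 TPM. Otc was 82.8 TPM in Control-GalNAc-ASO 15 mg/kg replicate 4, with the next at 155 TPM. Hal was 896 TPM in Upf3b-GalNAc-ASO 20 mg/kg replicate 1, with the next at 409 TPM. Replicate 2 of that group held the other two, Sds at 477 TPM (next 132 TPM) and Pck1 at 3835 TPM (next 1772 TPM).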

How the results depend on the processing

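Pck1 over both dose levels kept its call under all 7 alternatives, with differences of -1.23 to -0.98 and adjusted p (limma) of 0.00233 to 0.0430, and with each mouse left out. The inferred depth of 1012526 to 7334110 reads limits Nags most. Over both dose levels 592 genes were called, against 360 with no filter on low values, and 369 to 763 with a mouse left out. At the lower dose 27 were called, against 5 with no filter, 10 with no sex term, 56 with pseudocount 5, 91 without the 4 mice under 1500000 reads and 2 to 431 with a mouse left out. At 20 mg/kg 236 were called, against 67 with no filter, 143 without those 4 mice and 70 to 270 with a mouse left out. With all 31 mice in 1 fit, 62 genes in place of 34 were called at 10 mg/kg against DPBS, 163 in place of 103 at 20 mg/kg against DPBS, and 246 in place of 127 between the sexes. Under the median of ratios each member's difference shifted, and the median of these shifts was 0.106 at 20 mg/kg. It was -0.110 for the control at 20 mg/kg against DPBS and 0.123 for the difference between dose levels. The cause of these changes was not tested.

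Members called changed from 0 to 1 at the lower dose without the mice under 1500000 reads (Pck1 at -1.11, adjusted p = 0.0147), and at 20 mg/kg against DPBS from 0 to 1 with all 31 mice in 1 fit (Pck1, adjusted p = 0.0482) and to 2 without the mice under 1500000 reads (Asl at -0.96, adjusted p = 0.0193, and Pck1 at -1.44, adjusted p = 0.0261). With a mouse left out, members called ranged from 0 to 1 at the lower dose and from 0 to 2 at 20 mg/kg, against its control and against DPBS.

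The replicate numbers did not pair the mice (correlations of same-numbered mice from -0.25 to 0.20). The replicate block also left out each mouse whose number was missing from the other arm, so its fits held fewer mice. With the replicate block Pck1 over both dose levels was at -0.98 (adjusted p = 0.0430), and at 20 mg/kg against DPBS 1 member was called, Pck1 at -1.88 (adjusted p = 0.0440). Genes called under the block were 186 over both dose levels, 104 at the lower dose, 43 at 20 mg/kg, and 9 and 42 for the Upf3b-GalNAc-ASO groups against DPBS. Under the block the sign changed, uncalled, for Sds over both dose levels (0.066), Nags at the lower dose (-0.16), Sds for the control at 15 mg/kg (-7.2e-05) and Nags for the control at 20 mg/kg against DPBS (0.27), Ass1 (0.47) and Hal (0.20) at 20 mg/kg against DPBS, and Pck1 between dose levels (0.16).

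Other sign changes were also uncalled. Without the mice under 1500000 reads they were Cps1 (0.030) and Gls2 (0.061) at the lower dose, Nags (0.15) and Gls2 (0.13) at 10 mg/kg and Hal (0.050) at 20 mg/kg against DPBS, Asl (-0.037) and Nags (-0.059) between the sexes, and Gls2 (-0.24) and Pck1 (0.044) between dose levels. With all 31 mice in 1 fit they were Ass1 at 20 mg/kg against DPBS (0.013) and Otc (0.027), Ass1 (-0.14) and Asl (-0.39) between the sexes. With the median of ratios they were Ass1 at 20 mg/kg against DPBS (0.0057), and Hal (0.013) and Pck1 (0.12) between dose levels, and with pseudocount 5 Gls2 between dose levels (-0.0018).

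With a mouse left out, 23 results changed sign, all uncalled. Sds ranged from -0.33 to 0.043 over both dose levels and from -0.27 to 0.42 at 20 mg/kg. At the lower dose Cps1 ranged from -0.13 to 0.030, Asl from -0.35 to 0.10, Arg1 from -0.14 to 0.096, Nags from -0.46 to 0.63 and Gls2 from -0.36 to 0.061. For the control against DPBS, Ass1 ranged from -0.24 to 0.031, Nags from -0.61 to 0.20 and Sds from -0.15 to 0.14 at 15 mg/kg, and Nags from -0.42 to 0.041 and Pck1 from -0.41 to 0.052 at 20 mg/kg. For Upf3b-GalNAc-ASO against DPBS, Nags ranged from -0.43 to 0.25 and Gls2 from -0.29 to 0.13 at 10 mg/kg, and Ass1 from -0.17 to 0.14, Hal from -0.25 to 0.15 and Sds from -0.51 to 0.13 at 20 mg/kg. Between the sexes Ass1 ranged from -0.12 to 0.23, Asl from -0.14 to 0.19 and Nags from -0.20 to 0.51. Between dose levels Gls2 ranged from -0.27 to 0.15, Hal from -0.38 to 0.054 and Pck1 from -0.26 to 0.26.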
